A study of Mus musculus with 21 samples.

Results

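The genes described are 10 contractile genes of fast-twitch muscle fibres, chosen by symbol from the 53738 gene symbols of the deposited table. They were the myosin heavy chain genes Myh1, Myh2 and Myh4, the myosin light chain genes Myl1 and Mylpf, the troponin genes Tnnc2, Tnni2 and Tnnt3, the Z-disc gene Actn3 and the calcium buffer gene Pvalb. All 10 were present and all 10 passed the filter on low values. Measured values played no part in their choice, although earlier results of these data were known when they were picked. RNA was sequenced from whole quadriceps of C57/Bl6 wild-type male mice, sacrificed at 22 to 26 weeks of age, in 7 groups of 3 libraries. Sedentary mice neither trained nor exercised. Untrained mice ran a treadmill test to exhaustion after acclimatization to the treadmill. Their muscle was taken 0 h, 6 h and 72 h later, a group for each time. Trained mice had used a running wheel at will for 12 weeks before the same test and the same time points. Trained muscle without a bout was not analysed here, so training and the bout cannot be told apart in a comparison with sedentary muscle. The labels do not say that each library came from a different mouse, so p-values measure the spread between libraries, which may be partly technical.

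Muscle shortens when myosin heads pull on actin filaments, and the heavy chain isoform of a fibre sets how fast it can do so. In adult mice, Myh4 encodes the heavy chain of type IIB fibres, Myh1 that of type IIX and Myh2 that of type IIA, ordered from the fastest and most glycolytic to the slowest and most oxidative of the fast types, while Myh7 marks slow type I fibres. The light chains stabilise and tune the myosin neck, the troponin complex switches the thin filament on when calcium binds, alpha-actinin 3 anchors thin filaments at the Z-disc, and parvalbumin takes up calcium so that fast fibres relax quickly.

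Values were TPM, a transcript abundance corrected for transcript length and scaled to a fixed total per library, so levels of different genes can be compared. Read depth is not kept in TPM and is unknown. Replicate 1 of the untrained 0 h group held exactly the same values as replicate 1 of the trained 0 h group, which leaves 20 distinct libraries. Results at 0 h include this shared library unless stated. Fits without it are given for Myh1, Mylpf and the counts of members called. It held the highest value of the 20 libraries for Myl1, Tnnc2, Tnni2, Tnnt3, Actn3 and Pvalb, so their 0 h levels rest partly on it. The untrained 0 h mean of Pvalb, for example, was 7103 TPM with it and 6493 TPM without it. The mitochondrial genome accounted for 37.8% to 48.0% of the TPM of a library, with 37.8% to 40.6% in the 0 h groups, 45.7% to 47.0% in trained 6 h and 46.7% to 48.0% in trained 72 h muscle. The 4 muscle markers Ckm, Mb, Acta1 and Des summed to between 33687 and 43780 TPM, and none was at 0. Summed markers of other cell types reached at most 804.8 TPM for 5 red blood cell genes, 427.0 TPM for 5 fibro-adipogenic genes, 58.3 TPM for 5 endothelial genes, 56.6 TPM for 4 smooth muscle genes, 55.0 TPM for 5 adipocyte genes, 28.5 TPM for 5 macrophage genes, 5.93 TPM for 5 satellite cell genes and 1.92 TPM for 5 neutrophil genes. Of 4 tested macrophage genes, Cd68 (log2 1.62) and Csf1r (0.61) were called higher in untrained 6 h than in sedentary muscle, and 1 had a negative difference (-0.04). Cd68 alone was called in untrained 72 h muscle (1.53). Markers also differed between the arms. When trained was compared with untrained muscle at 6 h, 1 of the 4 muscle markers was called higher (log2 0.73). In the same comparison 2 of the 4 macrophage genes were called lower, and at 72 h 1 was. Against sedentary muscle, 1 of 5 endothelial genes was called lower in each 0 h group. Of 5 fibro-adipogenic genes, 1 was called higher in untrained 6 h and 2 lower in trained 6 h muscle. In bulk muscle, fewer fibres of a type and less RNA per fibre cannot be told apart.

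The 3 heavy chain genes lie side by side on the plus strand of chromosome 11 (GRCm39). Myh2 spans chr11:67061838-67088989, Myh1 spans chr11:67089132-67116631 and Myh4 spans chr11:67128336-67151274. Only 142 bases separate Myh2 from Myh1, and 11704 bases separate Myh1 from Myh4. These spans are the outermost bounds in GENCODE vM39. Their main transcripts have 39, 39 and 38 exons. The other members are scattered. Mylpf, Tnni2 and Tnnt3 are on chromosome 7, Myl1 is on chromosome 1, Tnnc2 on chromosome 2, Pvalb on chromosome 15 and Actn3 on chromosome 19. The 250 bases before the RefSeq start of each heavy chain gene (table on GRCm38.p6, placed on GRCm39 by exact match; these starts lie downstream of the GENCODE bounds, so the stretches shown fall partly or wholly inside the spans) are shown because these neighbours did not follow a common pattern across the groups. Capitals mark the longest run of bases common to all 3, and a TATAAA near the start where there is one.
Myh2 chr11:67061603-67061852, plus strand: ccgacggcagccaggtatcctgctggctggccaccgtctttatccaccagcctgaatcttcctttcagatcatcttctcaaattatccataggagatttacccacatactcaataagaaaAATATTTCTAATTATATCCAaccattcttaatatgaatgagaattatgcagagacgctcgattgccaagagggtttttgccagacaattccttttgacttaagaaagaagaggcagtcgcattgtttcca
Myh1 chr11:67090678-67090927, plus strand: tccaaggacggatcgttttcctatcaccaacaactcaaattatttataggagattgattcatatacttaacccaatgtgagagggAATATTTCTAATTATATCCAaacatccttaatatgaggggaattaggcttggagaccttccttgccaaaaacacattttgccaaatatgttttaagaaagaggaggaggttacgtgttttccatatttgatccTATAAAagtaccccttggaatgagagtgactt
Myh4 chr11:67128388-67128637, plus strand: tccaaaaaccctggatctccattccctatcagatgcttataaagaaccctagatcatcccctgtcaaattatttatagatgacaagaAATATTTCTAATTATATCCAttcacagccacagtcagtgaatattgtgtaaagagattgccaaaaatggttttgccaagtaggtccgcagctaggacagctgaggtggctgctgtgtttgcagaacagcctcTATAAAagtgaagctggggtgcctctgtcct

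The shared run of 20 bases stood in 3 of 32851 mouse promoter sequences of this length (0.00913%), those of the heavy chain genes themselves. Counted from the base before the start as -1, it ran from -165 to -146 in Myh1, from -163 to -144 in Myh4 and from -130 to -111 in Myh2. The letters TATAAA, searched on both strands, were found in 12.4% of all promoters. Close to the start they began at -32 in Myh1 and -31 in Myh4, and the 250 bases of Myh2 did not hold them. In global alignments, 55.6% of aligned positions were identical between Myh1 and Myh4, 52.1% between Myh2 and Myh4 and 46.9% between Myh2 and Myh1. The E-box letters CANNTG, held by 66.2% of all promoters on either strand, occurred at 2 places before Myh4 and at 0 before Myh1 and Myh2. Matches and misses describe the letters of this window alone.

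The transcripts of the heavy chain genes resemble each other in part, which bears on how short reads are assigned. Of the distinct words of 31 bases in the main transcript, 32.4% of those in Myh1, 34.5% in Myh2 and 30.7% in Myh4 occurred in another gene as well. Myh1 was the main partner for the others, holding 25.1% of the words of Myh2 and 19.6% of those of Myh4. Myl1 shared 25.95% of its words with its pseudogene Mylf-ps, Actn3 shared 0.84% and the other 5 members shared 0. Words were matched in the direction of the transcripts alone. Genes on the opposite strand, which overlap Mylpf, Tnnc2, Tnnt3, Actn3 and the heavy chains, were therefore not covered. The split of reads between the 3 heavy chains was made by the quantifier and is less certain than their sum.

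Fast contractile transcripts made up a large part of the muscle transcriptome. Means given here are over the 20 distinct libraries, and ranks among all genes are by the mean of all 21 columns. Mylpf, the regulatory light chain of fast myosin, had a mean of 32937 TPM (rank 2). Tnnc2, the calcium-binding troponin subunit, followed with 26378 TPM (rank 5), Tnnt3, the tropomyosin-binding subunit, with 13617 TPM (rank 15), Myl1, the essential light chain, with 11300 TPM (rank 18) and Tnni2, the inhibitory subunit, with 7562 TPM (rank 26). Pvalb had 5939 TPM (rank 33), Myh4 5577 TPM (rank 34), Actn3 1781 TPM (rank 51), Myh1 1126 TPM (rank 66) and Myh2 216 TPM (rank 287). The 10 genes together held between 9.10% and 12.3% of a library's TPM. The coefficient of variation over libraries was 7.96% for Myl1, 8.96% for Tnnt3 and 9.73% for Tnni2, and reached 20.9% for Myh1, 21.1% for Myh4 and 30.4% for Myh2. The heavy chains were thus the most variable members by this measure, with or without the shared library. Mylpf came next at 18.6%, but without the shared library it had 10.5%, below Actn3 at 13.85%.

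**Figure D1:**
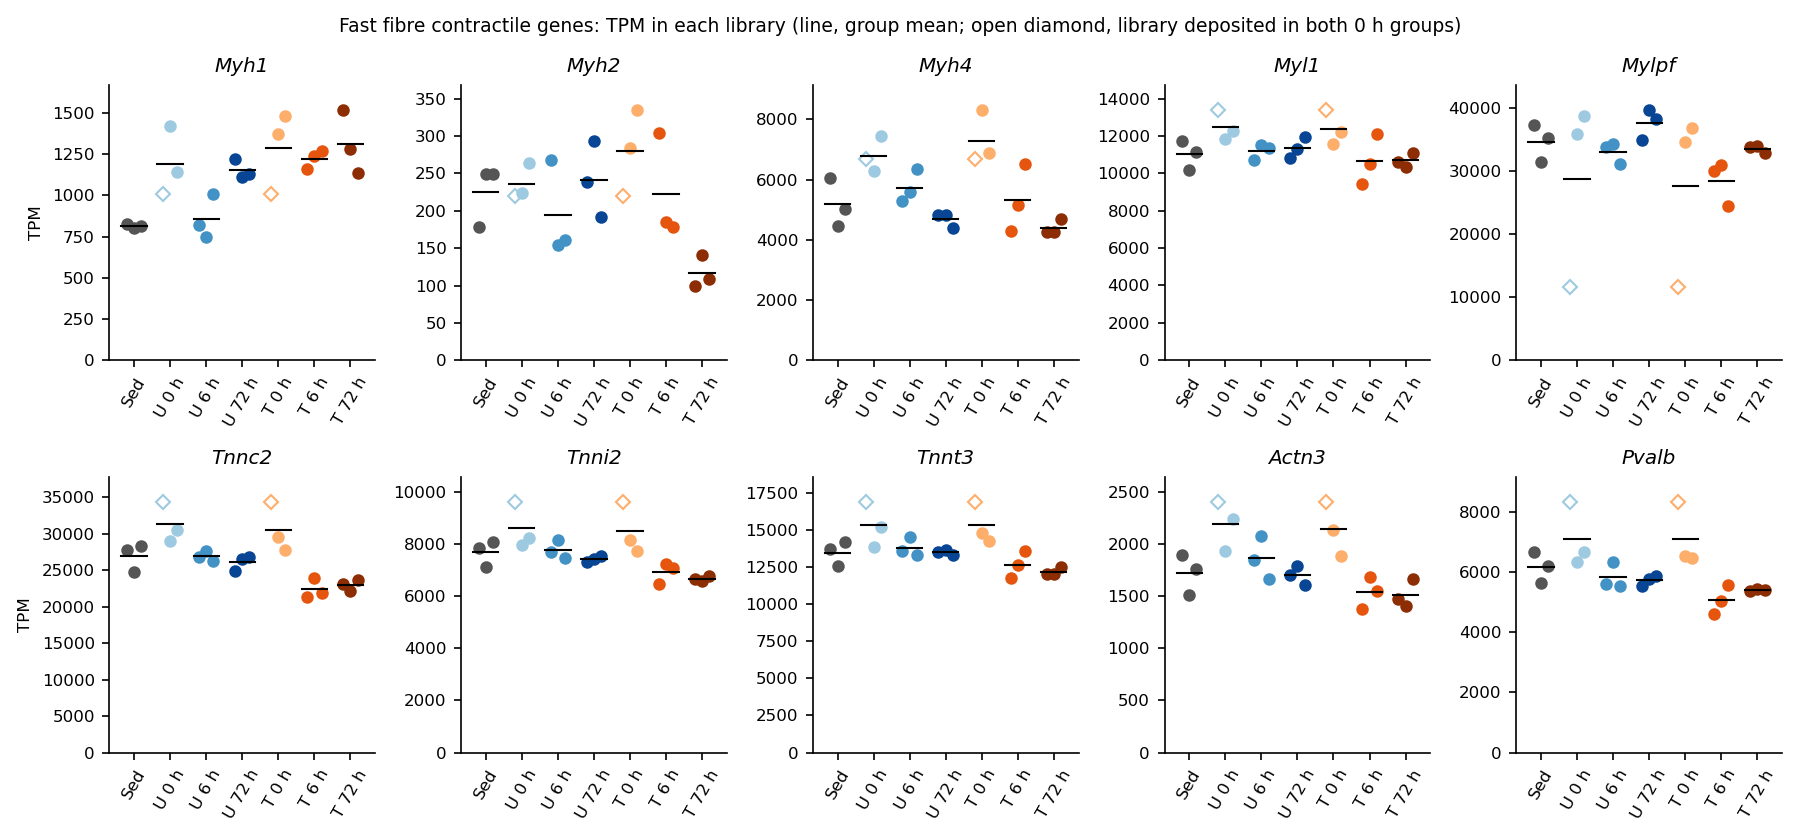
TPM of each fast fibre gene (vertical axes, linear from 0) in the 7 groups (Sed, sedentary; U, untrained; T, trained). Points are libraries, horizontal lines are group means and open diamonds are the library deposited in both 0 h groups. The 3 sedentary libraries sit low for Myh1 (805 to 828 TPM), the 3 trained 72 h libraries are the lowest for Myh2 (99.0 to 141 TPM), and the shared library stands apart for Mylpf (11538 TPM).

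Myh1, the IIX heavy chain, stood above the sedentary range in every library of 5 of the 6 exercised groups, and was the only member called in any of the 10 comparisons between groups. Sedentary libraries held 828, 805 and 818 TPM. Untrained 0 h libraries held 1010, 1422 and 1141 TPM, of which the first is the shared library, untrained 6 h libraries 820, 748 and 1008 TPM, and untrained 72 h libraries 1222, 1110 and 1130 TPM. Trained libraries held 1010 (shared), 1374 and 1485 TPM at 0 h, 1161, 1240 and 1267 TPM at 6 h, and 1521, 1279 and 1136 TPM at 72 h. Every library of the untrained 0 h and 72 h groups and of the 3 trained groups lay above every sedentary library, and the untrained 6 h group overlapped it. By group mean the order was trained 72 h (1312 TPM), trained 0 h (1290), trained 6 h (1223), untrained 0 h (1191), untrained 72 h (1154), untrained 6 h (859) and sedentary (817). Neighbours in this order overlapped except for untrained 72 h and untrained 6 h.

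Calls required a fold of at least 1.5 and a limma p below 0.05 after Benjamini-Hochberg adjustment over 11819 tested genes. Myh1 was called in trained 0 h muscle, with a log2 fold change of 0.64 ± 0.15 (SE) or 1.56-fold and an adjusted p of 0.0134. It was 1 of 10 members called in that comparison, in which 3.74% of all tested genes were called. In trained 6 h muscle its adjusted p was 0.0200 and its fold was 1.495, just under the threshold, and 0 of 10 members were called beside 3.85% of all genes. In untrained 0 h muscle the fold was 1.44 with an adjusted p of 0.0402, and 0 of 10 members were called beside 3.59%. Myh1 was the only member with such a p there, where 7.46% of all genes had one at any fold. At 72 h the log2 fold change was 0.67 ± 0.15 in trained muscle (adjusted p = 0.0652) and 0.50 ± 0.15 in untrained muscle (adjusted p = 0.663), where 0 members were called beside 0.169% and 0.00846% of all genes. At 6 h after the bout in untrained muscle it was 0.06 ± 0.15 (adjusted p = 0.884), with 0 of 10 members called beside 4.42%. The 6 comparisons share the sedentary libraries, whose Myh1 values lay close together, between 805 and 828 TPM.

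The call at 0 h was not steady. Without the shared library, Myh1 was called in both 0 h groups, at 0.81 ± 0.13 (adjusted p = 0.00161) in trained and 0.64 ± 0.13 (adjusted p = 0.00986) in untrained muscle. In all, 5 other scalings were tried, which were median-of-ratios, quantile normalization, and rescaling without the mitochondrial genome, without it and the members, and without it and the highest 10 genes. Under these its log2 fold change in trained 0 h muscle stayed positive, between 0.45 and 0.57, with adjusted p-values of 0.0594 to 0.197. The call was also lost without sedentary replicate 2 (adjusted p = 0.0515), trained 0 h replicate 2 (0.0548) or trained 0 h replicate 3 (0.0573), and in a fit of the compared groups alone (0.110). In trained 6 h muscle Myh1 was called under 4 of the 5 scalings and without trained 6 h replicate 1 (0.62, adjusted p = 0.0450). In trained 72 h muscle it was called under 1 of them (0.75, adjusted p = 0.0478) and without trained 0 h replicate 1 (0.67, adjusted p = 0.0413).

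Myh2, the IIA heavy chain, had its lowest levels in trained muscle at 72 h. Sedentary libraries held 179, 249 and 249 TPM, and trained 72 h libraries held 99.0, 141 and 109 TPM, lower than every library of the other groups. At 72 h untrained libraries held 239, 294 and 192 TPM. The remaining groups overlapped sedentary muscle, with 219 (shared), 224 and 264 TPM in untrained 0 h, 268, 154 and 162 TPM in untrained 6 h, 219 (shared), 284 and 335 TPM in trained 0 h, and 304, 185 and 178 TPM in trained 6 h muscle. The log2 difference of trained 72 h from sedentary muscle was -0.95 ± 0.25 (95% interval -1.48 to -0.42, fold 0.517), with a p of 0.00162 that became 0.116 after adjustment in the limma fit. Against untrained 72 h muscle it was -1.05 ± 0.25 (interval -1.58 to -0.51), with an adjusted p of 0.0881, and 0 of 10 members were called beside 0.245% of all genes. The test of whether the training difference depended on time gave Myh2 an unadjusted p of 0.00331 and an adjusted p of 0.149. It called 0 of 10 members beside 0.812% of all genes.

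Over the 5 scalings the Myh2 difference from sedentary muscle at 72 h stayed between -0.90 and -0.86, and over each library left out in turn between -1.11 and -0.84, in no case called. Without untrained 6 h replicate 1, the difference from untrained muscle at 72 h (-1.05, adjusted p = 0.0496) and the interaction of training and time (adjusted p = 0.0495) passed. This library enters the 72 h difference through the pooled spread alone, but it enters the interaction also through the mean of its own group. A gene on the opposite strand, 9430073C21Rik, overlaps Myh2 and Myh1 and was chosen after its values were seen. Its level across the 20 libraries followed that of Myh2 more closely than any other tested gene did (r = 0.89). It had 35.6 ± 1.86 TPM (SD, n = 3) in sedentary, 34.2 ± 3.43 TPM in untrained 72 h and 21.8 ± 0.955 TPM in trained 72 h muscle, and was called lower in the last against both (log2 -0.70, adjusted p = 0.0177, and -0.64, adjusted p = 0.0129, limma). The library kit does not mark strand, so reads of this gene and of the heavy chains cannot be told apart where they overlap.

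Myh4, the IIB heavy chain and the most abundant of the 3, was highest directly after the bout. Sedentary libraries held 6056, 4463 and 5031 TPM. Libraries at 0 h held 6671 (shared), 6275 and 7435 TPM in untrained and 6671 (shared), 8322 and 6879 TPM in trained muscle, all above every sedentary library. At 6 h the values were 5272, 5582 and 6340 TPM in untrained and 4295, 5168 and 6508 TPM in trained muscle, and at 72 h they were 4835, 4825 and 4385 TPM and 4266, 4244 and 4692 TPM. The groups at 6 h and 72 h overlapped sedentary muscle. The order of the means was trained 0 h (7291 TPM), untrained 0 h (6794), untrained 6 h (5731), trained 6 h (5324), sedentary (5184), untrained 72 h (4682) and trained 72 h (4401), and each overlapped its neighbour. The trained 0 h difference of 0.50 ± 0.14 (1.41-fold) had an adjusted p of 0.0317 but did not reach a fold of 1.5, and the untrained 0 h difference of 0.40 ± 0.14 had an adjusted p of 0.0891. Adjusted p-values below 0.05 at any fold were given to 9.37% of all genes in the trained comparison. Without sedentary replicate 1, Myh4 was called in trained 0 h muscle at 0.61 (adjusted p = 0.0211), and over the 5 scalings its difference was 0.31 to 0.50 with adjusted p-values of 0.114 to 0.277. Myhas, a gene on the other strand that overlaps Myh1 and Myh4 and was looked up after its neighbours' values were seen, had 897 ± 76.6 TPM in sedentary, 1197 ± 49.8 TPM in untrained 0 h and 1259 ± 38.9 TPM in trained 0 h muscle, with adjusted p-values of 0.00231 and 0.000515 at folds under 1.5. Reads of Myhas and of the heavy chains likewise cannot be told apart where they overlap.

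**Figure D2:**
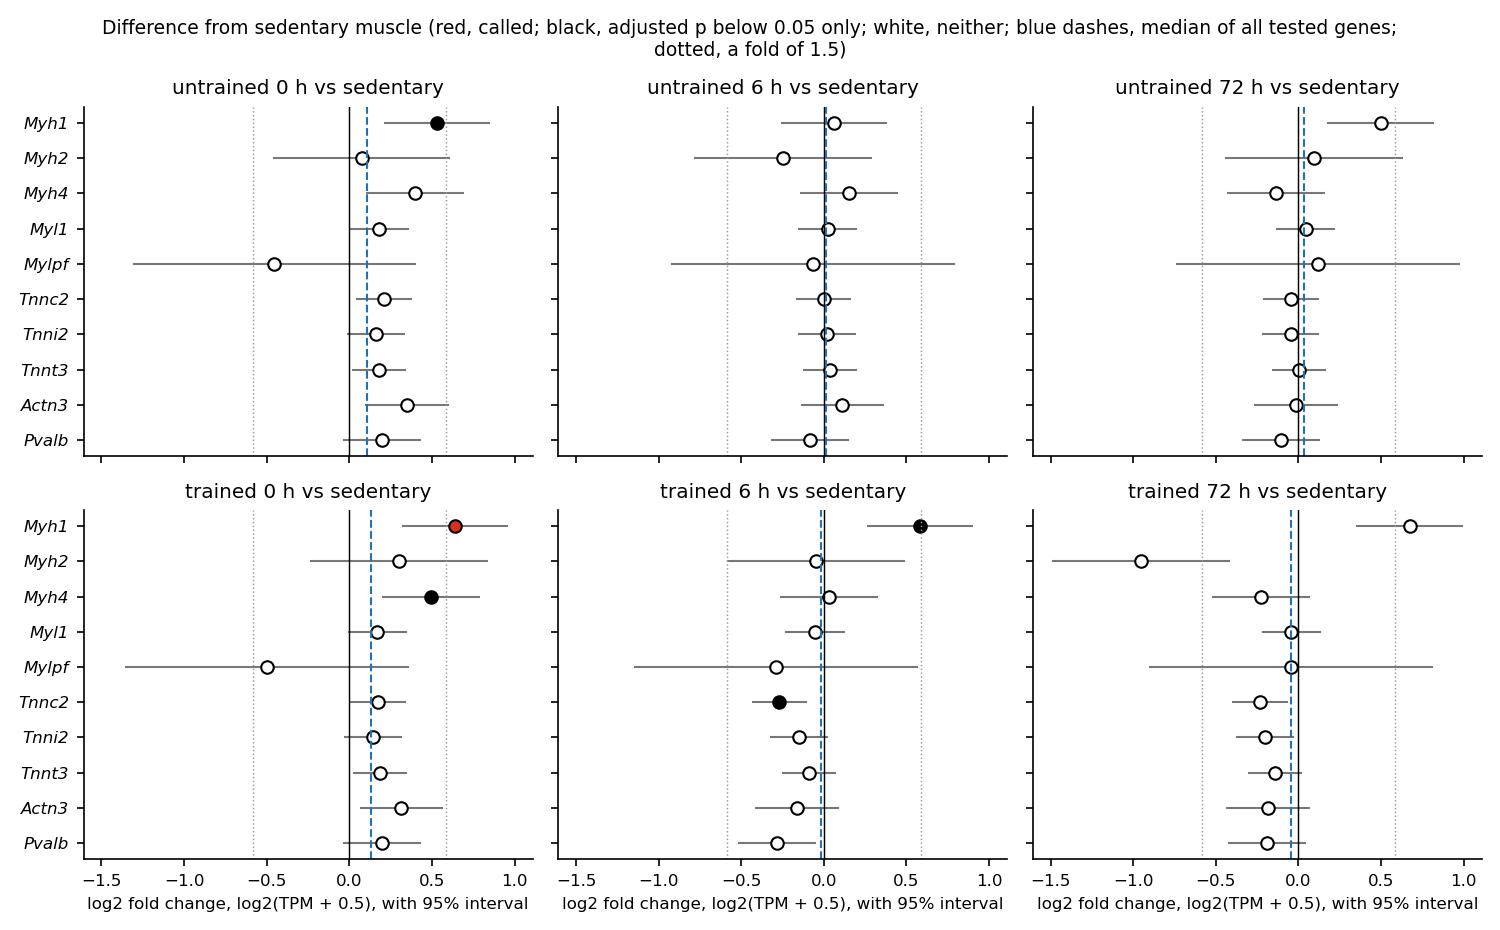
Log2 fold change of each fast fibre gene against sedentary muscle (horizontal axis) in the 6 exercised groups, with 95% intervals. Red points were called, black points had an adjusted p below 0.05 at a smaller fold, blue dashes mark the median of all tested genes and dotted lines a fold of 1.5. Myh1 lies to the right in 5 panels and is red in trained 0 h, and Myh2 lies to the left in trained 72 h at -0.95.

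Shares within the summed TPM of Myh1, Myh2, Myh4 and the slow heavy chain Myh7 do not change when all values of a library are multiplied by the same factor, although quantile normalization can change them. In sedentary muscle Myh4 held 82.4% ± 2.62 (SD, n = 3), Myh1 13.1% ± 1.42, Myh2 3.68% ± 1.03 and Myh7 0.839% ± 0.529. The Myh1 share was 11.7%, 14.5% and 13.2% in the sedentary libraries, 19.3%, 17.7% and 19.7% at 72 h in untrained muscle and 25.7%, 22.5% and 19.0% at 72 h in trained muscle. In trained 6 h libraries it was 19.9%, 18.7% and 15.8%. Every library of these 3 exercised groups lay above the highest sedentary library. At 0 h the shares were 12.8% in the shared library, 17.9% and 12.9% in the other untrained libraries and 13.7% and 17.0% in the other trained ones, and at 6 h in untrained muscle they were 12.9%, 11.5% and 13.4%. Both sets overlapped the sedentary range. The higher Myh1 level at 0 h thus came with a higher Myh4 level, whereas at 72 h it did not.

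The Myh4 share was lowest where the Myh1 share was highest, which parts of the same sum largely force when Myh2 and Myh7 hold little. The Myh4 level itself overlapped sedentary muscle in both 72 h groups. It was 76.3%, 76.9% and 76.6% in untrained 72 h and 72.1%, 74.7% and 78.5% in trained 72 h libraries, all below the sedentary libraries at 85.3%, 80.4% and 81.3%. As a ratio of levels, Myh4 exceeded Myh1 6.34 ± 0.90 times in sedentary, 4.06 ± 0.25 times in untrained 72 h and 3.42 ± 0.67 times in trained 72 h muscle. The Myh2 share was 1.67%, 2.49% and 1.82% in trained 72 h muscle, against 2.52%, 4.49% and 4.03% in sedentary and 3.77%, 4.68% and 3.36% in untrained 72 h muscle. The ratio of Myh1 to Myh2 was 3.71 ± 0.79 in sedentary and 11.6 ± 3.31 in trained 72 h muscle, where its lowest library (9.05) lay above the highest of every other group (7.12). Myh7 held at most 1.45% in any library. Since the heavy chains are members, these shares are a description and carry no test.

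**Figure D3:**
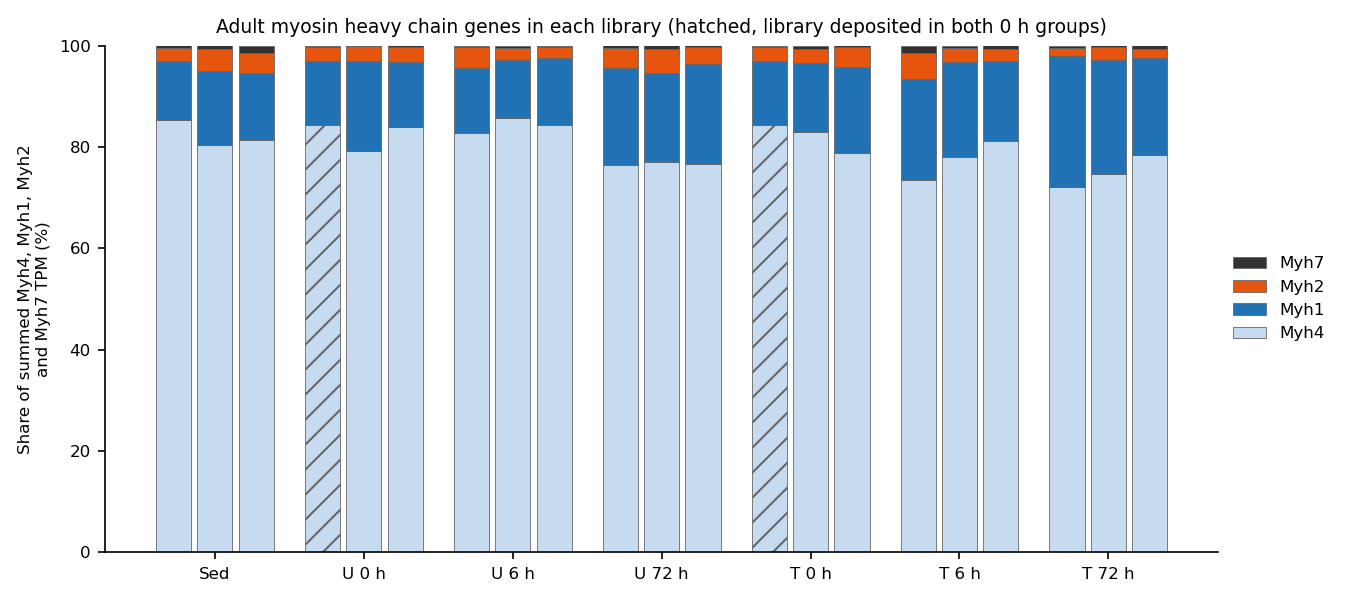
Share of each adult heavy chain gene in their summed TPM (vertical axis, percent, stacked bars from 0) in every library, grouped as sedentary (Sed), untrained (U) and trained (T). The Myh1 band widens from 11.7% to 14.5% in sedentary to 19.0% to 25.7% in trained 72 h libraries, and the Myh2 band is thinnest there (1.67% to 2.49%). The hatched bar is the same library in both 0 h groups.

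The troponin genes differed little between groups. Tnnc2 had 27853, 24820 and 28362 TPM in sedentary libraries and 21389, 23920 and 21920 TPM in trained 6 h libraries, which did not overlap. Its log2 difference there was -0.27 ± 0.077 (fold 0.830), with an adjusted p of 0.0347 at a fold too small to be called, beside 10.4% of all genes with such a p in either direction. Trained 72 h libraries were also below sedentary, with 23152, 22125 and 23669 TPM (-0.23 ± 0.077, adjusted p = 0.235). At 0 h Tnnc2 stood at 34401 TPM in the shared library, 29081 and 30481 TPM in the other untrained libraries and 29525 and 27731 TPM in the other trained ones. It had 26865, 27689 and 26243 TPM in untrained 6 h and 24945, 26550 and 26839 TPM in untrained 72 h muscle. Across the 5 scalings the trained 6 h difference of Tnnc2 stayed between -0.25 and -0.20, with adjusted p-values of 0.00629 to 0.186. Ube2c, a gene of the mitotic ubiquitin system on the other strand, overlaps Tnnc2 and was looked up after its values were seen. It had a mean of 1106 TPM and, like Tnnc2, was lower in trained 6 h (961 ± 28.8 TPM) than in sedentary muscle (1108 ± 80.1 TPM), with an adjusted p of 0.196. Since strand is not marked, reads of Ube2c and of Tnnc2 cannot be told apart where they overlap.

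Tnni2 and Tnnt3 had group means between 6672 and 8612 TPM and between 12207 and 15356 TPM, and had 0 calls and 0 adjusted p-values below 0.05 in the 10 comparisons. In trained 72 h muscle all 3 libraries of each lay below all sedentary ones, at 6659, 6589 and 6769 TPM against 7868, 7108 and 8078 TPM for Tnni2 and at 12077, 12032 and 12513 TPM against 13744, 12558 and 14194 TPM for Tnnt3. The limma differences were -0.20 ± 0.080 (adjusted p = 0.335) and -0.14 ± 0.074 (adjusted p = 0.480). Ratios between the subunits varied less than their levels. Tnnc2 exceeded Tnni2 3.51 ± 0.024 times in sedentary, 3.44 ± 0.075 times in trained 72 h and 3.24 ± 0.12 times in trained 6 h muscle, where the 3 libraries (3.09, 3.30 and 3.31) lay below those of every other group.

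The light chains differed from each other. Myl1 had 11744, 10181 and 11131 TPM in sedentary muscle and group means between 10659 and 12502 TPM, and its differences from sedentary muscle lay between -0.05 and 0.18 with no adjusted p-value under 0.185. Mylpf had 37311, 31362 and 35204 TPM in sedentary libraries and 11538 TPM in the shared 0 h library, against 24348 to 39684 TPM in the other 19 distinct libraries. In the shared library the ratio of Mylpf to Myl1 was 0.86, and it was 2.01 to 3.51 in all others. This library moved the fitted Mylpf difference at 0 h from 0.11 ± 0.095 to -0.45 ± 0.40 in untrained and from 0.04 ± 0.095 to -0.50 ± 0.40 in trained muscle. It also widened the interval in every other comparison, since the spread is pooled over groups. Mylpf in trained 6 h muscle (29965, 30964 and 24348 TPM) lay below all sedentary libraries, at -0.29 ± 0.40 (adjusted p = 0.716).

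Actn3, which is found only in fast fibres of adult muscle, and Pvalb followed the troponins. Actn3 had 1892, 1512 and 1765 TPM in sedentary muscle, 2406 (shared), 1932 and 2239 TPM in untrained 0 h and 2406 (shared), 2140 and 1889 TPM in trained 0 h muscle. Its lowest group means were those of trained muscle, with 1537 ± 153 TPM at 6 h and, at 72 h, 1515 ± 131 TPM. No difference of Actn3 passed (lowest adjusted p = 0.0818, untrained 0 h, 0.35 ± 0.12). Pvalb had 6674, 5629 and 6197 TPM in sedentary libraries, 4614, 5027 and 5562 TPM in trained 6 h and 5348, 5421 and 5386 TPM in trained 72 h libraries, both groups below every sedentary library. The trained 6 h difference was -0.28 ± 0.11 (adjusted p = 0.114). Over the 5 scalings it lay between -0.40 and -0.23 with adjusted p-values of 0.0102 to 0.112, and it did not reach a fold of 1.5.

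The median log2 difference from sedentary muscle was 0.19 over the members and 0.10 over all tested genes in untrained 0 h muscle, 0.19 and 0.13 in trained 0 h, 0.02 and 0.01 in untrained 6 h, -0.12 and -0.01 in trained 6 h, -0.0065 and 0.04 in untrained 72 h, and -0.19 and -0.04 in trained 72 h muscle. Under the 5 scalings the median of all genes at 0 h was -0.05 to -0.0042 in untrained and -0.04 to 0.0078 in trained muscle, and that of the members 0.02 to 0.24 and 0 to 0.21. An unadjusted p below 0.05 was found for 6 members in untrained 0 h (24.2% of all genes), 5 in trained 0 h (27.2%), 0 in untrained 6 h (21.8%), 3 in trained 6 h (24.1%), 1 in untrained 72 h (5.77%) and 4 in trained 72 h muscle (11.7%). In trained 0 h muscle 9 of 10 members were higher, a number that ranged from 5 to 9 over the 5 scalings, and in trained 72 h muscle 9 of 10 were lower, which became 7 or 8. Groups without overlap occurred for 5 members in untrained 0 h (27.2% of all genes), 3 in trained 0 h (29.1%), 0 in untrained 6 h (20.4%), 4 in trained 6 h (28.9%), 1 in untrained 72 h (12.2%) and 6 in trained 72 h muscle (19.4%). The members in the 0 h and the untrained 72 h groups were all higher, as were 22.9%, 26.3% and 9.04% of all genes in untrained 0 h, trained 0 h and untrained 72 h muscle. In trained 6 h muscle 1 was higher and 3 were lower, beside 13.9% and 15.0% of all genes. The 6 at trained 72 h were Myh1, which was higher, and Myh2, Tnnc2, Tnni2, Tnnt3 and Pvalb, which were lower, beside 5.63% and 13.8% of all genes in these directions.

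Between trained and untrained muscle, 0 of 10 members were called at 0 h, 6 h, 72 h or on average over the 3 times, beside 0%, 2.01%, 0.245% and 0.372% of all genes. An unadjusted p below 0.05 was found in limma for 0, 3, 2 and 4 members, against 1.21%, 18.3%, 15.0% and 16.2% of all genes. At 0 h the comparison shares a library between its arms, and differences lay between -0.04 and 0.23. At 6 h Myh1 was 0.52 ± 0.15 higher in trained muscle (adjusted p = 0.0594), with all 3 trained libraries above all untrained ones. It passed after 3 of the 5 scalings (0.60 to 0.62, adjusted p = 0.0315 to 0.0498) and without untrained 6 h replicate 3 (0.64, adjusted p = 0.0343). The difference of Tnnc2 at 6 h was -0.27 ± 0.077 (adjusted p = 0.0617). Without overlap at 6 h, 1 member was higher (7.4% of all genes) and 3 were lower (11.5%), 18.9% of all genes in either direction, and at 0 h, with a library in common, 0 members and 0% of all genes could be. At 72 h 6 members (Myh2, Mylpf, Tnnc2, Tnni2, Tnnt3 and Pvalb) were lower in each trained than in each untrained library, beside 24.6% of all genes lower in this way and 28.5% without overlap in either direction. With adjustment over all genes, the test over all 7 groups passed for 8 of 10 members, all but Myl1 and Mylpf, where 34.6% of all genes passed.

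The count of that test changed with the scaling. When TPM was rescaled without mitochondrially encoded genes, 3 of 10 members passed (Myh1, Myh4 and Tnnc2) beside 25.3% of all genes, and adjusted p-values were 0.324 for Tnni2, 0.501 for Tnnt3, 0.107 for Pvalb, 0.0742 for Actn3 and 0.0648 for Myh2. Across the 20 distinct libraries, levels of Tnnt3 (r = -0.93, rho = -0.93), Tnnc2 (r = -0.90, rho = -0.88), Actn3 (r = -0.90, rho = -0.88), Tnni2 (r = -0.89, rho = -0.91), Pvalb (r = -0.84, rho = -0.82), Myl1 (r = -0.78, rho = -0.79) and Myh4 (r = -0.75, rho = -0.77) were lower where the mitochondrial share was higher. For Myh2 (r = -0.50, rho = -0.44), Myh1 (r = 0.03, rho = 0.11) and Mylpf (r = 0.21, rho = -0.40) the values lay nearer to 0. Without the 2 libraries farthest from the median share, r was -0.93 for Tnnt3, -0.90 for Tnnc2, -0.72 for Myh4, 0.14 for Myh1 and -0.51 for Mylpf. Within groups, after group means were removed and the shared library was left out, r was -0.78 for Tnnt3, -0.64 for Tnnc2, -0.29 for Myh4, 0.19 for Myh2 and 0.36 for Myh1. Both quantities are parts of the same fixed total, which by itself favours a negative r, and libraries of a group share their treatment, so these values are a description with no test.

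**Figure D4:**
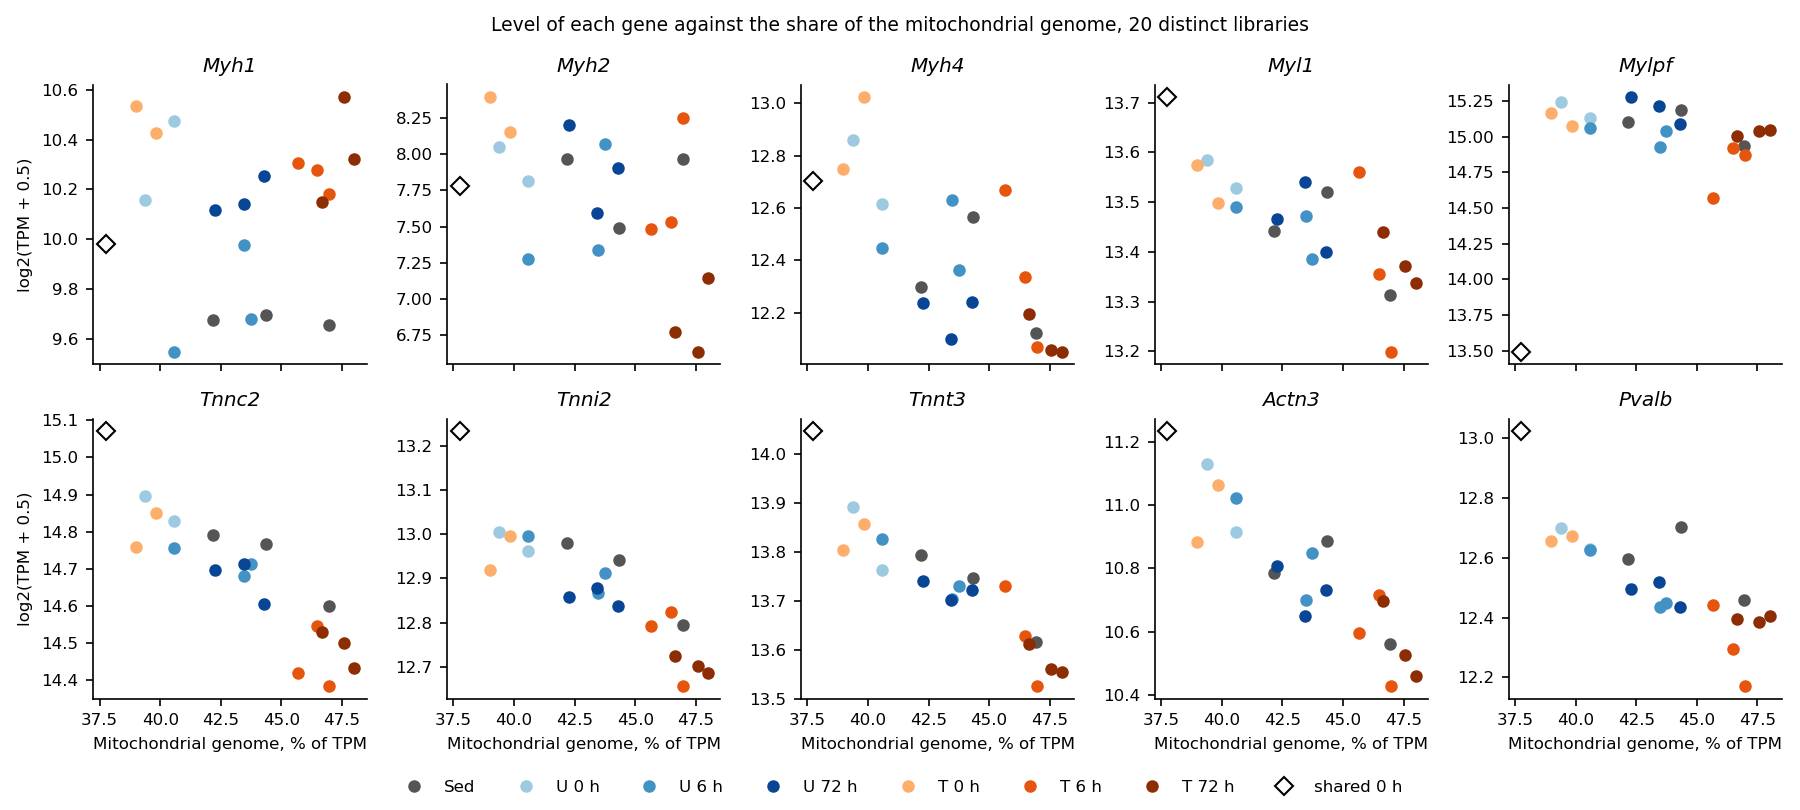
Level of each fast fibre gene as log2(TPM + 0.5) (vertical axes, which differ between panels) against the percentage of TPM held by the mitochondrial genome, in the 20 distinct libraries coloured by group. Tnnt3 and Tnnc2 fall along a line (r = -0.93 and -0.90), Myh1 does not (r = 0.03), and the shared 0 h library, an open diamond at 37.8%, is highest for Tnnc2 and lowest for Mylpf.

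Members formed a tight set and a loose set by their pattern over libraries. Tnni2 and Tnnt3 were the most alike (r = 0.96, n = 20), and Tnnc2, Tnni2, Tnnt3, Actn3 and Pvalb correlated with each other at 0.86 or more. Mylpf and Tnnt3 were the least alike at -0.41, which became 0.40 without the shared library. Myh1 stood apart from the rest, with correlations between -0.30 (Tnni2) and 0.12 (Myh4), and correlated with its neighbour Myh2 at -0.06. All libraries of a group share a treatment and all genes of a library share its scaling, so these values are descriptive.

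**Figure D5:**
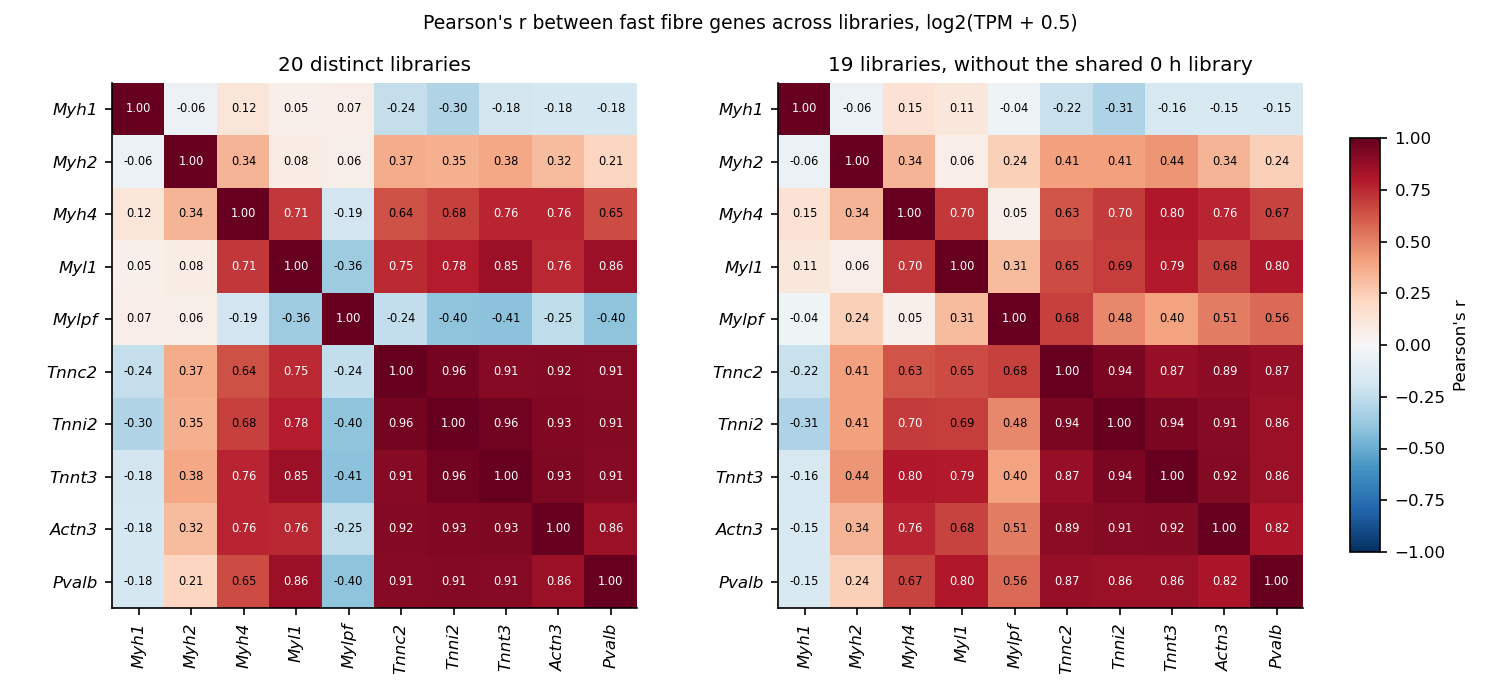
Pearson's r between each pair of fast fibre genes over 20 distinct libraries (left) and without the shared 0 h library (right), with colour from -1 (blue) to 1 (red). The troponins, Actn3 and Pvalb form a red block at 0.86 or more on the left, the Mylpf row changes sign against Tnnt3 (-0.41 and 0.40), and the Myh1 row is pale on both sides.

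Among the 11819 tested genes, those most like the mean of the members were Tmem38a, a potassium channel of the sarcoplasmic reticulum (r = 0.90), Gm15655 (0.89), Maf, a transcription factor (0.89), Ggnbp1 (0.89) and Dcun1d2 (0.88). Likeness to the single heavy chains pointed to different genes. Myh1 was followed most closely by the mitochondrial enzymes Cs, citrate synthase (0.88), and Got2 (0.79), with Gm10874 (0.84) between them. Myh2 was followed, after its antisense neighbour, by Casq2 (0.87) and Myoz2 (0.85), the slow and cardiac forms of calsequestrin and of a Z-disc protein. Myh4 was followed by Mybpc2, the fast myosin-binding protein C (0.94), Sort1 (0.91) and Chordc1 (0.90), Actn3 by the muscle creatine kinase Ckm (0.95), Sar1b (0.94) and Tnnt3 (0.93), and Pvalb by Cib2 (0.94), Ube2c (0.93) and Eola1 (0.93). Ube2c overlaps the member Tnnc2 on the other strand, and reads of the overlap cannot be told apart. Each r is over 20 libraries and is a description.

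Other genes of the contractile apparatus were read from lists. Of 8 further fast fibre genes, among them Mybpc2, the calcium pump Atp2a1 and the calcium store protein Casq1, 0 were called in any of the 10 comparisons. Their median difference from sedentary muscle was 0.22 in both 0 h groups and lay between -0.17 and 0.0013 in the other 4, and 4 of the 8 in each 0 h group and 5 in trained 6 h muscle had an unadjusted limma p below 0.05, where 24.2%, 27.2% and 24.1% of all genes did. Adjusted p-values below 0.05 at folds under 1.5 were found for Atp2a1 (log2 0.38, adjusted p = 0.0387) and the M-band gene Myom2 (0.41, adjusted p = 0.0477) in untrained 0 h muscle, for the same genes in trained 0 h muscle (0.36, adjusted p = 0.0446, and 0.45, adjusted p = 0.0278), and for Casq1 in trained 6 h muscle (-0.37, adjusted p = 0.0122). Of 14 tested genes common to all fibre types, Lmod2, an actin filament regulator, was called higher in untrained 6 h muscle (75.5 ± 21.3 against 23.1 ± 0.650 TPM, log2 1.64, adjusted p = 0.000738) and was called lower at 6 h when trained was compared with untrained muscle (-1.03, adjusted p = 0.0364).

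By median, slow fibre genes had larger differences from sedentary muscle than the members in every group but trained 6 h. Of 11 tested, Myl3, a slow light chain, was called lower at 0 h (89.9 ± 6.23 against 188.9 ± 49.6 TPM, log2 -1.04, adjusted p = 0.0328) and 6 h (74.1 ± 8.02 TPM, -1.32, adjusted p = 0.00606) in untrained muscle. Myl2, the slow regulatory light chain, was called lower at 6 h in untrained muscle (93.8 ± 15.2 against 234.8 ± 79.7 TPM, -1.28, adjusted p = 0.0468) and was called higher at that time when trained was compared with untrained muscle (1.41, adjusted p = 0.0480). The median of the list was -1.08 and -1.06 in untrained 0 h and 6 h muscle, against 0.19 and 0.02 for the fast members. It was -0.51 in untrained 72 h, -0.45 in trained 0 h and -0.003 in trained 6 h muscle. The summed list held 922.7, 968.2 and 1491 TPM in the sedentary libraries, so the sedentary level was raised by its highest library. In trained 72 h muscle the slow list had a median of -0.67 with 0 called and 5 of 11 at an unadjusted p below 0.05 in limma, beside 0.169% and 11.7% of all genes. Fewer slow fibres and lower levels per fibre cannot be told apart, and the difference between the lists was not tested.

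Among regulators linked to fast fibres, Maf was called higher at 0 h in untrained (45.1 ± 7.88 against 29.2 ± 2.55 TPM, log2 0.61, adjusted p = 0.00251) and trained muscle (46.7 ± 5.24 TPM, 0.67, adjusted p = 0.00109). Mafa was called lower in trained 6 h muscle (5.70 ± 0.691 against 10.3 ± 1.54 TPM, -0.79, adjusted p = 0.00733). The myogenic factor Myod1 was called higher in untrained 6 h muscle (13.1 ± 3.83 against 4.41 ± 1.71 TPM, 1.49, adjusted p = 0.00552). Six4, Eya1, Sox6 and Tbx15 had 0 calls in the 10 comparisons between groups.

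Of 7 tested regulators linked to slow or oxidative fibres, Ppargc1a, the coactivator of mitochondrial biogenesis, was called higher at 6 h in untrained (27.1 ± 5.49 against 3.90 ± 0.739 TPM, log2 2.65, adjusted p = 2.78e-07) and trained muscle (38.9 ± 9.75 TPM, 3.15, adjusted p = 3.97e-07). The nuclear receptor genes Esrrg (10.6 ± 1.38 against 3.67 ± 0.484 TPM, 1.41, adjusted p = 3.1e-05) and Esrrb (2.44 ± 0.213 against 1.20 ± 0.195 TPM, 0.80, adjusted p = 0.000469) were called higher in trained 6 h muscle, and Esrrg lower in untrained 0 h muscle (-0.59, adjusted p = 0.0178). Of 4 tested developmental isoforms 0 were called by limma, 0 or 1 had an unadjusted p below 0.05 in each comparison, with medians between -0.16 and -0.03 against sedentary muscle.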

How the data were processed

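RNA of whole quadriceps was sequenced as paired ends on a NovaSeq after TruSeq RNA v2 preparation, which does not mark strand. The authors aligned reads with STAR 2.7.9 to GRCm39 and quantified them with salmon 1.5.0, and the deposited values are TPM per gene symbol for 21 columns. The annotation release is not given in the sources used here. TPM holds no depth, so no counting interval was computed.

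Groups were taken from the labels. In R 4.3.3, limma 3.58.1 was fitted to log2(TPM + 0.5) for 11819 of 53738 symbols with a mean of at least 1 TPM, with a trended variance, 7 group means in 1 model and Benjamini-Hochberg adjustment over all tested genes. A call needed an adjusted p below 0.05 and a fold of at least 1.5. Fold changes are on the log2(TPM + 0.5) scale. The fit was tested on simulated data. Alternatives varied the pseudocount, filter, scaling, samples, block and shared library. Groups, motifs, ratios and shares were computed in Python 3.11.15, and promoters came from RefSeq. The members and all gene lists were chosen with earlier results of these data known. All members were named, together with listed genes that were called, apart from those not reported here, and the 5 genes most like the members' mean or the 3 most like Myh1, Myh2, Myh4, Actn3 and Pvalb. Results of some listed genes are not reported here.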

Additional observations from a re-analysis of the deposited data

Results flagged for a closer look

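No fast fibre gene was called in the tests of trained against untrained muscle, at single times, averaged over them or for training by time. Under some alternatives Myh1 passed at 6 h and Myh2 at 72 h. Of the other listed genes, 4 were called at 6 h after the bout, where the trained minus untrained log2 difference was 0.91 for Esrrb (adjusted p = 0.000261), 1.24 for Esrrg (adjusted p = 9.18e-05), -1.03 for Lmod2 (adjusted p = 0.0364) and 1.41 for Myl2 (adjusted p = 0.0480) in the limma fit. The test of training by time over the 3 times also passed for Esrrb (adjusted p = 0.0264) and Esrrg (adjusted p = 0.00992), and not for Lmod2 or Myl2. Trained muscle without a bout was not analysed. At 6 h, a difference already present before the bout thus cannot be told apart from a different response to it.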

How the results depend on the processing

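Depth is unknown and each group holds 3 libraries. In untrained 0 h muscle the number of members called was 0, and became 1 with no fold threshold, without the shared library or with it in trained muscle alone, and 0 to 1 over libraries left out in turn. All genes passed at 7.46% there with no fold threshold and at 2.89% without the shared library. In trained 0 h muscle it was 1, and became 0 under median-of-ratios, quantile and the 3 rescalings and in fits of the compared groups alone, 2 with no fold threshold, and 0 to 2 over libraries left out. The share of all genes was 2.93% under median-of-ratios, 2.9% without the mitochondrial genome and 9.37% with no fold threshold. In trained 6 h muscle the number of members called was 0, and became 1 under median-of-ratios and the 3 rescalings, 2 with no fold threshold, and 0 to 1 over libraries left out. Here 4.1% of all genes were called under median-of-ratios, 4.04% without the mitochondrial genome and 10.4% with no fold threshold. In trained 72 h muscle it was 0, and became 1 with a mean of at least 5 TPM, after rescaling without the mitochondrial genome, and without the shared library or with it in untrained muscle alone, and 0 to 1 over libraries left out. Between trained and untrained muscle the number of members called was 0 at 6 h, 1 under the 3 rescalings and 0 to 1 over libraries left out, and it was also 0 to 1 over libraries left out at 72 h and for training by time. At 6 h, 2.22% of all genes were called without the mitochondrial genome and 2.12% without it and the members.

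The test over 7 groups passed for 8 members (34.6% of all genes) and for 4 with no filter. It passed for 3 under median-of-ratios (27.3%) and for 3 after rescaling without the mitochondrial genome (25.3%). Rescaling without that genome and the members left 2 (26.3%), and rescaling without that genome and the highest 10 genes left 2. Other listed genes had 18 calls, 7 in fits of the compared groups alone and 42 with no fold threshold. The share of Myh4 in untrained 72 h muscle was 77.0% when Myh7 was left out of the sum. Rescaling without the mitochondrial genome and the highest 10 genes turned Tnnc2 to -0.0164 and Tnnt3 to -0.0065 in trained 0 h muscle. Small differences, none of them called, also changed sign under the 5 scalings, among them Tnni2 (4 of 5, to -0.0469), Pvalb (1, -0.052) and Myl1 (1, -0.0211) in trained 0 h, Myh2 in untrained 0 h (5 of 5, to -0.11) and Mylpf in trained 72 h muscle (5 of 5, to 0.04). The cause was not tested.

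With a replicate block, calls of members were 1 in trained 0 h muscle (Myh1, 0.64, adjusted p = 0.0211), 8 over the 7 groups and 0 elsewhere, and 17 for the other listed genes. Same-numbered libraries of different groups correlated at -0.115 to 0.134 (median 0.018) after group means were removed, and other pairs at -0.383 to 0.246 (median -0.00516). Such weak correlations cannot settle whether the numbers pair the libraries.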
